A study of Mus musculus with 10 samples.

Results

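Interferon-stimulated genes are the genes that cells switch on when interferons reach them. A list of 38 such genes, written by name, was followed through stretched skin. Of these, 36 had a named probe set among the 19505 genes named on the arrays, and Gbp5 and Ifi44 were not analysed here. The rule uses symbols and no measured value of these genes, except that the probe set with the highest mean stood for a gene. The list itself was chosen with earlier results of these data known.

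Whole back skin of C57BL/6J mice, 9 weeks old at the start, was profiled on 10 arrays. In the 4 expanded samples a silicone expander under the skin had been gradually filled with PBS, and 1 array each came from days 0, 7, 14 and 21 after full injection. The 4 non-expanded samples, on the same days, lay over an expander that was implanted and never filled. The 2 remaining arrays were normal skin without surgery, 1 in anagen (the growth stage of the hair cycle) and 1 in telogen (the resting stage), with no day given. The labels name no other genetic change and do not state if RNA of 1 animal or of several went onto an array, so p-values measure only the spread between these arrays. Keratinocyte markers averaged 14.32 to 14.84 (log2 signal) on expanded and 13.27 to 14.21 on non-expanded arrays, and hair shaft and root sheath markers averaged 15.52 in anagen against 6.30 in telogen skin. Hair markers also stood at 11.45 on the expanded array of day 7, where the other expanded arrays read 4.72 to 6.41. On the non-expanded array of day 14 they stood at 7.79, where the other non-expanded arrays read 4.39 to 4.63. In whole skin, fewer cells of a type and less RNA per cell cannot be told apart.

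Interferons alpha and beta bind a receptor whose signal brings a complex that includes STAT2 and IRF9 to a short DNA element, the interferon-stimulated response element (ISRE). Interferon gamma acts through another element, the gamma-activated site (GAS), and its targets include Irf1, the guanylate-binding proteins and the immunoproteasome. The products block viral replication, sense foreign nucleic acids, present antigen and restrain the response itself. In skin, keratinocytes, fibroblasts and resident or recruited leukocytes can all make them.

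Promoters of 4 members are shown because they carry these elements and because their genes were among those with the smallest p between the arms. The sequences are from RefSeq (GRCm38.p6), 250 bases before to 50 after the annotated start, with matches to either element in capitals.
Bst2 (chr8:71537423-71537722, - strand): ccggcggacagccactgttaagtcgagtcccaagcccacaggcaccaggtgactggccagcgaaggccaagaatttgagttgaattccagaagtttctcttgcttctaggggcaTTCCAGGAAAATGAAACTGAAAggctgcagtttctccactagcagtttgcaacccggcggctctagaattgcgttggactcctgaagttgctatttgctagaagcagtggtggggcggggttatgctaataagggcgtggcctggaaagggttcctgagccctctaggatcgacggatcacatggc
Ifit3 (chr19:34583279-34583578, + strand): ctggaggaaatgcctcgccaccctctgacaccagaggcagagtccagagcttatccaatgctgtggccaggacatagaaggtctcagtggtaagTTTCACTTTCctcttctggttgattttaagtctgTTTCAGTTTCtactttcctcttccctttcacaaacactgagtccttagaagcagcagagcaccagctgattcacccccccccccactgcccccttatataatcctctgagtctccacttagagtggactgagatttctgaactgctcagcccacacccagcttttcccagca
Ifit1 (chr19:34640639-34640938, + strand): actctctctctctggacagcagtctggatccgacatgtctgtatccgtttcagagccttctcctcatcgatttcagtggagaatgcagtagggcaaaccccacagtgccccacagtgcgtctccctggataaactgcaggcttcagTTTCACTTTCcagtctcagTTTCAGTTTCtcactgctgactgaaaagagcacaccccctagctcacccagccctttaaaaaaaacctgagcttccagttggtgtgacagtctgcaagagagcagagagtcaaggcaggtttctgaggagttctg
Irf1 (chr11:53769764-53770063, + strand): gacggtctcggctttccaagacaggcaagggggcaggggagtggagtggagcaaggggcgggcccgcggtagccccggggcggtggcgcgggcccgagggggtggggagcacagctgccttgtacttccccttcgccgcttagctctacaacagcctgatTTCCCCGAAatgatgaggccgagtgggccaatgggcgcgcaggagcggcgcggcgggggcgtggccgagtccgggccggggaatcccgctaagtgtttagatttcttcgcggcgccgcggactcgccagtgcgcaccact

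The ISRE core was searched as GAAANNGAAA, or TTTCNNTTTC for the other strand, and the GAS core as TTCNNNGAA, which reads alike on both strands. Of the 30 listed genes with a promoter in the table, Gbp5 and Ifi44 included, 14 held an ISRE core (46.7%), against 1079 of all 27025 genes in the table (3.99%). A GAS core was found in 8 of the 30 (26.7%), against 2582 of 27025 (9.55%). Ifit1 and Ifit3, which bind viral RNA, each held 2 ISRE cores. Isg15, the ubiquitin-like modifier, held 3 overlapping matches between -78 and -57, counted from the start at 0. In Bst2 the GAS match at -136 to -128 overlapped the first of 2 ISRE matches. Irf1 held a GAS core at -90 to -82 and Psmb8 held one at -97 to -89, both without an ISRE core. Ifit2 and Ifi35 also held a GAS core alone. The reverse was found in Gbp2 and Gbp3, with ISRE but no GAS cores, and Psmb9 and Tap1 held neither. Such a match is a run of letters, not a shown binding site, and Herc6, Oasl2 and Irf7 had neither run in this window. The map of motif matches shows where they lie.

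**Figure D1:**
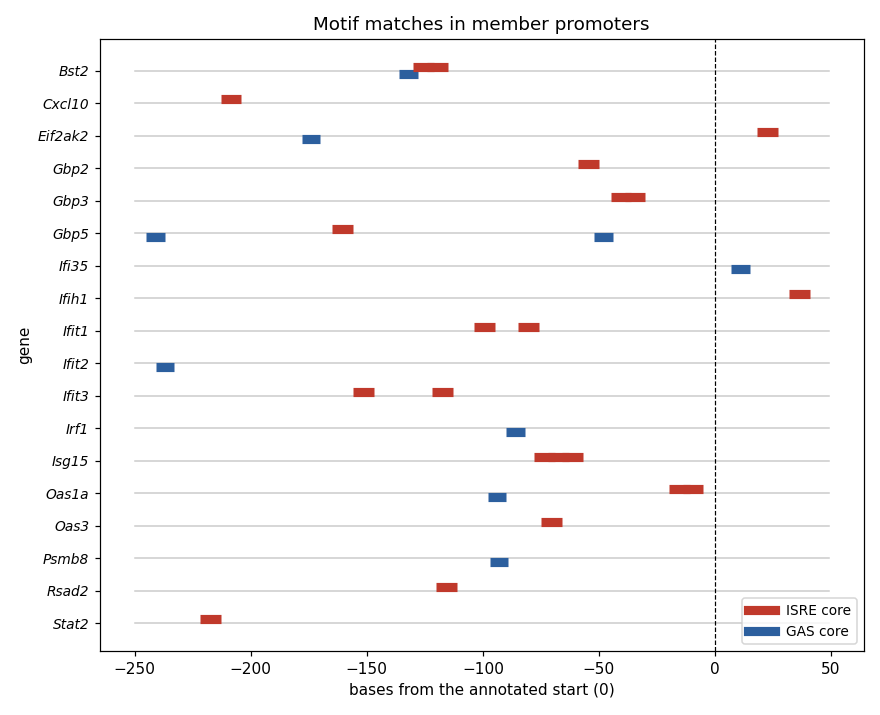
Positions of ISRE core (red) and GAS core (blue) matches in the promoters of the 18 listed genes that hold at least 1, in bases from the annotated start at 0. Most matches lie upstream of the start, while those of Eif2ak2 and Ifih1 (ISRE) and Ifi35 (GAS) lie downstream.

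The first comparison set the filled expanders against the unfilled ones. Interferon-stimulated genes stood lower in expanded skin. The mean of the 4 expanded arrays was below that of the 4 non-expanded arrays for 34 of the 36 members, against 53.2% of all named genes, and the median log2 difference (expanded minus non-expanded) was -0.81, against -0.03 over all named genes. In 18 members the expanded array was the lower one on all 4 days (9.47% of all named genes), and in 31 on at least 3 days (35.2%), and in 10 the mean was at least 2-fold lower (1.61%). On all 4 days 0 of 36 were higher (7.63% of all named genes). Most members rose and fell together over the arrays, so these counts are not of separate observations. The mean log2 signal over the 36 members was 7.53, 7.56, 6.75 and 7.03 on the expanded arrays in day order, against 8.17, 8.18, 7.18 and 8.46 on the non-expanded arrays, and 6.28 in anagen and 6.98 in telogen skin. The arms thus overlapped, with non-expanded skin of day 14 below expanded skin of days 0 and 7.

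No single member passed. limma with the day as a block gave 0 calls among 13653 genes at an adjusted p of 0.05 (0% called), with 1202 genes at an unadjusted p under 0.05. Without the filter on low levels, 19 of the 36 members were lower and 0 higher at an unadjusted p under 0.05, against 4.1% lower and 4.21% higher among all 19505 genes. With that filter, which removed Oas1a, Oas2, Oas3, Oasl1, Rsad2 and Dhx58, the lowest adjusted p of a member was 0.331.

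**Figure D2:**
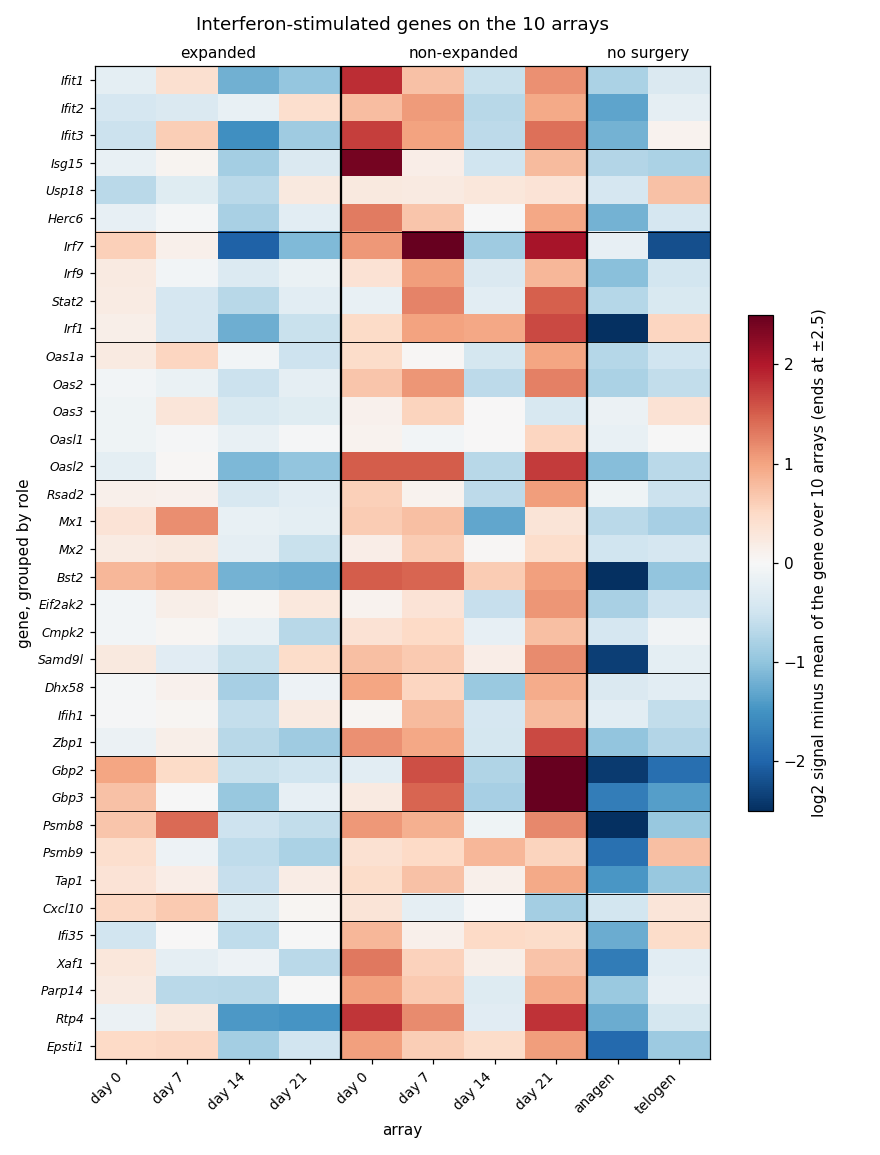
Log2 signal of the 36 members on each of the 10 arrays, minus the mean of each gene, with genes grouped by role and arrays by group and day. Rows are mostly red on the non-expanded arrays of days 0, 7 and 21, mostly pale or blue on that of day 14, and mostly blue in anagen skin.

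Among the transcription factors, Irf7 and Irf1 differed most. Irf7, the factor that amplifies interferon production (chromosome 7, 141263183 to 141266499, GRCm38.p6), read 6.88, 6.41, 4.26 and 5.18 on the expanded arrays of days 0, 7, 14 and 21, against 7.36, 8.85, 5.39 and 8.35 in non-expanded skin, and 6.09 in anagen and 4.09 in telogen skin. It was lower in expanded skin on each day, with a mean difference of -1.81 ± 0.46 (SE; limma adjusted p = 0.37). The arms overlapped, and non-expanded skin of day 14 read below the background median of 5.46, as did expanded skin of days 14 and 21.

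Irf1, a factor induced by interferon gamma (chromosome 11, 53770014 to 53778374), read 10.05, 9.47, 8.67 and 9.33 on the expanded arrays of days 0, 7, 14 and 21, against 10.37, 10.89, 10.85 and 11.54 in non-expanded skin, and 7.32 in anagen and 10.44 in telogen skin. Every expanded array lay below every non-expanded array, which held for 3 of the 36 members (Herc6, Irf1 and Ifi35) and for 2.35% of all named genes. The reverse held for 0 of 36 members (2.31% of all named genes). Its difference was -1.53 ± 0.36 (SE; limma adjusted p = 0.35).

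Stat2 and Irf9 encode parts of the complex that binds the ISRE. Stat2 read 8.83, 8.21, 7.94 and 8.37 on the expanded arrays in day order, 8.44, 9.87, 8.36 and 10.12 on the non-expanded arrays, 7.92 in anagen and 8.25 in telogen skin. Irf9 read 8.64, 8.34, 8.06 and 8.25 on the expanded arrays in day order, 8.78, 9.45, 8.04 and 9.24 on the non-expanded arrays, 7.36 in anagen and 7.95 in telogen skin. Stat2 was higher in expanded skin at day 0 and Irf9 was level at day 14, and both were lower on the other days, with differences of -0.86 ± 0.40 (SE; limma adjusted p = 0.604) and -0.55 ± 0.28 (adjusted p = 0.629).

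The IFIT proteins bind viral RNA and block its translation. Ifit3 (chromosome 19, 34583119 to 34588982) read 8.51, 9.66, 7.51 and 8.15 on the expanded arrays of days 0, 7, 14 and 21, against 10.78, 10.06, 8.39 and 10.42 in non-expanded skin, and 7.86 in anagen and 9.14 in telogen skin. Ifit1 read 5.95, 6.58, 4.99 and 5.22 on the expanded arrays in day order, 8.03, 6.93, 5.64 and 7.32 on the non-expanded arrays, 5.39 in anagen and 5.83 in telogen skin. Both were lower in expanded skin on all 4 days, with the gap widest at days 0 and 21 and narrowest at day 7. Their differences were -1.46 ± 0.38 (SE; limma adjusted p = 0.379) and -1.29 ± 0.37 (SE; limma adjusted p = 0.435), and that of Ifit2 was -0.66 ± 0.36 (adjusted p = 0.65), with expanded skin higher at day 14.

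Isg15 is attached to proteins as a ubiquitin-like tag, Herc6 is the ligase that attaches it in mice, and Usp18 removes it. Herc6 (chromosome 6, 57580992 to 57665136), the member with the smallest p, read 8.38, 8.53, 7.77 and 8.32 on the expanded arrays of days 0, 7, 14 and 21, against 9.88, 9.28, 8.58 and 9.55 in non-expanded skin, and 7.40 in anagen and 8.17 in telogen skin. Its arms did not overlap, and the difference was -1.07 ± 0.24 (SE; limma adjusted p = 0.331). Isg15 read 5.16, 5.42, 4.49 and 4.98 on the expanded arrays in day order, 7.74, 5.52, 4.85 and 6.15 on the non-expanded arrays, 4.60 in anagen and 4.56 in telogen skin. Isg15 thus stood apart in non-expanded skin of day 0, was at or under background on all 4 expanded arrays, and differed by -1.05 ± 0.43 (SE; limma adjusted p = 0.556), or by -0.54 without day 0. Usp18 differed by -0.63 ± 0.24 (SE; limma adjusted p = 0.538), with an SD of 0.05 among the 4 non-expanded arrays.

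The OAS family is named for enzymes that make short RNA signals on meeting double-stranded RNA. Oasl2 (chromosome 5, 114896926 to 114912245) was the one well above background and read 7.36, 7.64, 6.49 and 6.62 on the expanded arrays of days 0, 7, 14 and 21, against 9.12, 9.12, 6.92 and 9.35 in non-expanded skin, and 6.54 in anagen and 6.93 in telogen skin. The non-expanded array of day 14 lay near the 2 arrays without surgery, while the other 3 were over 9, and the difference was -1.60 ± 0.38 (SE; limma adjusted p = 0.35). Oas1a, Oas2, Oas3 and Oasl1 averaged 2.58 to 4.54 in expanded and 2.81 to 5.04 in non-expanded skin, all means under the background median. Oas2 differed by -0.85 and the other 3 by -0.19 to -0.23.

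Among antiviral effectors, Bst2, the membrane protein tetherin that holds budding virus at the cell surface (chromosome 8, 71534255 to 71537472), read 13.45, 13.55, 11.44 and 11.42 on the expanded arrays of days 0, 7, 14 and 21, against 14.14, 14.09, 13.26 and 13.65 in non-expanded skin, and 9.66 in anagen and 11.64 in telogen skin. Expanded skin was at -0.69 and -0.54 against non-expanded skin at days 0 and 7 and under the telogen level at days 14 and 21, with a mean difference of -1.32 ± 0.35 (SE; limma adjusted p = 0.379). Samd9l, an antiviral and growth-restraining protein, read 12.14, 11.61, 11.35 and 12.35 on the expanded arrays in day order, 12.64, 12.54, 12.05 and 13.07 on the non-expanded arrays, 9.55 in anagen and 11.64 in telogen skin, a difference of -0.72 ± 0.21 (SE; limma adjusted p = 0.437). The nucleotide kinase gene Cmpk2 and Mx2 differed by -0.58 ± 0.29 and -0.40 ± 0.25, the kinase gene Eif2ak2 by -0.14 ± 0.29 and Rsad2, under background on 9 of 10 arrays, by -0.37. Mx1, whose protein is truncated in C57BL/6 mice, differed by 0.17 ± 0.33 (SE; limma adjusted p = 0.901), with expanded skin higher at days 7 and 14.

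Among the sensors, Zbp1, which senses Z-form nucleic acid and can start cell death, read 5.28, 5.57, 4.72 and 4.53 on the expanded arrays of days 0, 7, 14 and 21, against 6.57, 6.39, 4.98 and 7.07 in non-expanded skin, and 4.44 in anagen and 4.69 in telogen skin. It differed by -1.23 ± 0.39 (SE; limma adjusted p = 0.467), and 6 of its 10 values were under the background median. Ifih1, which encodes the RNA sensor MDA5, differed by -0.39 ± 0.23 and Dhx58, which encodes its relative LGP2, by -0.61.

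Rtp4, an interferon-induced RNA-binding protein (chromosome 16, 23520219 to 23614222), had the largest mean difference of the members and read 7.72, 8.11, 6.42 and 6.38 on the expanded arrays of days 0, 7, 14 and 21, against 9.64, 9.03, 7.58 and 9.66 in non-expanded skin, and 6.61 in anagen and 7.41 in telogen skin. It was lower in expanded skin on all 4 days, with a mean difference of -1.82 ± 0.41 (SE; limma adjusted p = 0.344). Parp14, an ADP-ribosyltransferase, read 8.19, 7.30, 7.27 and 7.97 on the expanded arrays in day order, 8.99, 8.62, 7.65 and 8.89 on the non-expanded arrays, 7.04 in anagen and 7.75 in telogen skin. Xaf1, which promotes cell death, read 7.92, 7.41, 7.50 and 6.97 on the expanded arrays in day order, 8.95, 8.20, 7.77 and 8.34 on the non-expanded arrays, 5.89 in anagen and 7.36 in telogen skin. These differed by -0.85 ± 0.24 (SE; limma adjusted p = 0.425) and -0.87 ± 0.26 (SE; limma adjusted p = 0.438). Ifi35 and Epsti1 differed by -0.76 ± 0.28 and -0.87 ± 0.30, both lower on all 4 days.

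**Figure D3:**
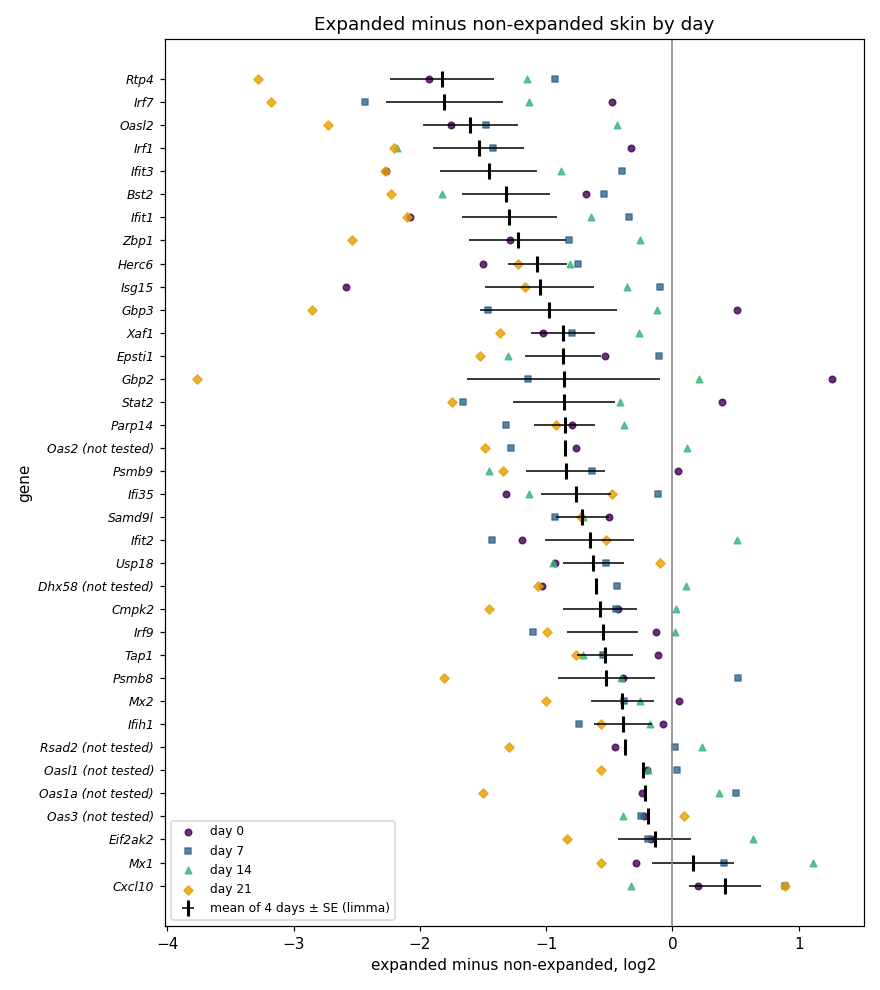
Log2 difference, expanded minus non-expanded skin, of each of the 36 members at days 0, 7, 14 and 21 (coloured symbols), with the mean and limma standard error (black) where the gene was tested. Only Cxcl10 and Mx1 have means above 0, and day 21 holds most of the differences beyond -2.

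Gbp2, a guanylate-binding protein that attacks vacuoles of intracellular pathogens (chromosome 3, 142620663 to 142638008), read 9.67, 9.14, 8.12 and 8.17 on the expanded arrays of days 0, 7, 14 and 21, against 8.40, 10.29, 7.91 and 11.94 in non-expanded skin, and 6.28 in anagen and 6.78 in telogen skin. It was higher in expanded skin at days 0 and 14 and lower at days 7 and 21, and its difference of -0.86 ± 0.76 (SE; limma adjusted p = 0.764) turned to 0.11 without day 21. Gbp3 differed by -0.98 ± 0.55 (SE; limma adjusted p = 0.658). The neighbouring Gbp genes are similar in sequence, and whether their probe sets tell them apart is not given.

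Psmb8 and Psmb9 are subunits of the immunoproteasome, and Tap1 carries its peptides to MHC class I. Psmb8 read 9.95, 10.67, 8.74 and 8.64 on the expanded arrays in day order, 10.35, 10.15, 9.15 and 10.45 on the non-expanded arrays, 6.14 in anagen and 8.30 in telogen skin. Tap1 read 10.69, 10.52, 9.78 and 10.54 on the expanded arrays in day order, 10.80, 11.07, 10.49 and 11.30 on the non-expanded arrays, 8.89 in anagen and 9.40 in telogen skin. Tap1 was lower in expanded skin on all 4 days and Psmb8 on 3, with differences of -0.53 ± 0.23 (SE; limma adjusted p = 0.575) and -0.52 ± 0.38 (SE; limma adjusted p = 0.725), and Psmb9 differed by -0.85 ± 0.31 (SE; limma adjusted p = 0.526). The difference of Psmb8 was -0.87 without day 7 and -0.10 without day 21. Cxcl10, a chemokine that draws T cells, went against most members and read 6.00, 6.14, 5.15 and 5.52 on the expanded arrays of days 0, 7, 14 and 21, against 5.80, 5.25, 5.48 and 4.63 in non-expanded skin, and 5.01 in anagen and 5.78 in telogen skin. The expanded array was the higher one at days 0, 7 and 21, and the mean difference was 0.41 ± 0.28 (SE; limma adjusted p = 0.71), with 4 values under background.

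The days differed in size. The median difference over the members was -0.47, -0.55, -0.37 and -1.32 at days 0, 7, 14 and 21, with 30, 30, 26 and 34 of 36 lower in expanded skin, against 51.5%, 53.1%, 51% and 50% of all named genes. With 1 array a side, no test was made. Members at least 2-fold lower numbered 11, 10, 7 and 22 of 36 on these days, against 5.6%, 7.03%, 7.41% and 4.89% of all named genes. Members at least 2-fold higher numbered 1, 0, 1 and 0, against 6.94%, 6.43%, 8.41% and 4.9%. Isg15 led at day 0 (-2.58, with the expanded value under background and the size thus inexact), followed by Ifit3 (-2.27), Ifit1 (-2.08) and Rtp4 (-1.93). Irf7 (-2.44), Stat2 (-1.66), Oasl2 (-1.48) and Gbp3 (-1.46) led at day 7. At day 14 the leading members were Irf1 (-2.18), Bst2 (-1.82), Psmb9 (-1.45) and Epsti1 (-1.30). Day 21 had the widest gaps, in Gbp2 (-3.77), Rtp4 (-3.28), Irf7 (-3.18, again with the expanded value under background) and Gbp3 (-2.86).

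Both arms had low levels at day 14. In expanded skin that array was the lowest of the arm for 23 of 36 members (21.5% of all named genes), and in non-expanded skin for 29 of 36 (23.9% of all named genes). Straight lines over the 21 days sloped down for 29 of 36 members in expanded skin (49.4% of all named genes; median change -0.68) and for 20 in non-expanded skin (50.1%; median change -0.03), against medians of 0.01 and 0.00 over all named genes. In expanded skin 3 members sloped down at an unadjusted p under 0.05 and 0 up (1.33% and 1.22% of all named genes), and in non-expanded skin 0 down and 0 up (1.89% and 2.25%). No gene passed for either slope or for their difference (limma, 0 of 13653 each, 0%), where 166 had an unadjusted p under 0.05 for the difference. For the slope difference (expanded minus non-expanded), 2 of 36 members were lower at an unadjusted p under 0.05, against 0.979% of all named genes, and 0 were higher (0.892%). They were Psmb9 at -1.49 ± 0.57 (SE; limma adjusted p = 0.9995) and Irf1 at -1.92 ± 0.75 (SE; limma adjusted p = 0.9995). Gbp2, Bst2, Epsti1 and Gbp3 followed at -4.12 ± 1.91, -1.77 ± 0.91, -1.25 ± 0.80 and -2.63 ± 1.82. Without day 21 the median slope difference of the members was 0.25, against -0.42 with all days, and without day 0, 7 or 14 that of the slopes in non-expanded skin was 0.40, 0.08 and 0.18. Without day 21 the medians of the slopes were -1.08 in expanded and -1.33 in non-expanded skin.

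**Figure D4:**
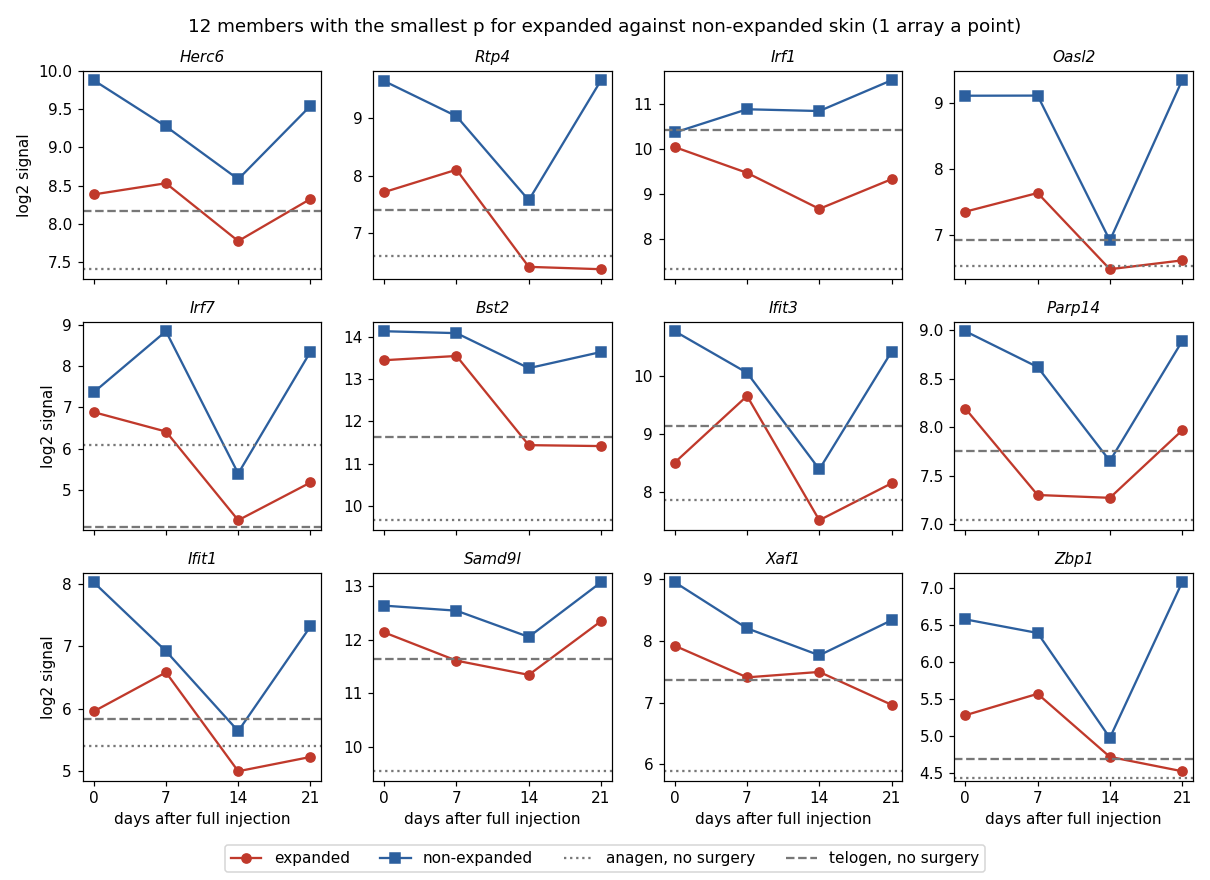
Log2 signal by day of the 12 members with the smallest p for expanded against non-expanded skin, 1 array a point, with anagen (dotted) and telogen (dashed) levels. Expanded skin (red) lies below non-expanded skin (blue) on every day in all 12 panels, and the non-expanded line has its lowest point at day 14 in most of them.

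The second question was how skin over an unfilled expander differed from skin without surgery. Members stood higher over the implant. The non-expanded arrays are those of the first comparison, so these differences are not independent of the first ones. The non-expanded mean was above that without surgery for 34 of 36 members (50.6% of all named genes), with a median difference of 1.30 against 0.01 over all named genes, and 23 were at least 2-fold higher (7.82% of all named genes). All 4 non-expanded arrays lay above both arrays without surgery for 16 members (10.2% of all named genes). No gene passed (limma, 0 of 13653, 0%, with 2144 at an unadjusted p under 0.05). That fit took anagen and telogen as 1 group and held no term for the day. Differences by hair stage and by day thus entered its spread. Without the level filter 21 of 36 members were higher at an unadjusted p under 0.05 and 0 lower, against 7.72% and 5.73% of all named genes.

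Tap1 had the smallest p, at 1.77 ± 0.35 (SE; limma adjusted p = 0.0739). Epsti1 differed by 2.21 ± 0.46 (SE; limma adjusted p = 0.0784) and Bst2, which averaged 13.78 ± 0.41 (SD, n = 4) in non-expanded skin, by 3.13 ± 0.74 (SE; limma adjusted p = 0.103). Psmb8, Herc6 and Xaf1 differed by 2.80 ± 0.72, 1.54 ± 0.40 and 1.69 ± 0.46. Gbp2 differed by 3.10 ± 0.97, and Irf7 by 2.40 ± 1.01. Cxcl10 and Oas3 were the members that were not higher, at -0.11 and -0.04.

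The size of this difference depended on the array taken as skin without surgery. Against telogen alone the median of the members was 0.93 and 7 of 36 were higher at an unadjusted p under 0.05 (6.71% of all named genes). Against anagen alone the median was 1.55, that of all named genes was 0.13, and 10 of the 30 members tested passed an adjusted p of 0.05 in limma, where 2645 of 13653 genes did (19.4%). Both fits hold a lone array on one side, whose spread is assumed to equal that within the arms. Of the members, 31 of 36 were lower in anagen than in telogen skin, against 57.1% of all named genes, by a median of -0.50. Irf1 differed most (-3.11), then Psmb9 (-2.63), Psmb8 (-2.17) and Samd9l (-2.09). Irf7 was the 1 member at least 2-fold higher in anagen skin (17.5% of all named genes were), at 6.09 against a telogen value of 4.09 that lies under background, and 11 were at least 2-fold lower (17.8%).

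The third comparison set expanded skin against skin without surgery, which shares those 2 arrays with the second. Expanded means were higher for 33 of 36 members (46.8% of all named genes), with a median of 0.44 against -0.04 over all named genes. Of the 65 genes that passed in limma (0.476%), 0 were members, and 6 of 36 members were higher at an unadjusted p under 0.05 against 8.35% of all named genes, while 0 were lower (5.71%). These were Tap1 at 1.24 ± 0.35 (SE; limma adjusted p = 0.124), Psmb8 at 2.28 ± 0.72, Epsti1 at 1.35 ± 0.46, Bst2 at 1.81 ± 0.74, Samd9l at 1.26 ± 0.54 and Gbp2 at 2.24 ± 0.97. Usp18, Oas3 and Ifit3 were the members that were not higher, at -0.52, -0.23 and -0.04. For 31 of 36 members the expanded mean lay between that without surgery and that of non-expanded skin (19.8% of all named genes). That count follows from those of members below non-expanded skin and above skin without surgery, and is no further result. Every expanded array was above both arrays without surgery for 9 members (11.3% of all named genes), and 8 means were at least 2-fold higher (8.37%). Against telogen alone the median was 0.16 with 24 of 36 higher (47.5% of all named genes). Against anagen alone the median was 0.67 with 34 of 36 higher (54.7% of all named genes), and more genes passed, members among them. Each of these 2 fits holds a lone array on one side. Macrophage and monocyte markers were higher than without surgery by a median of 2.76 in expanded skin, and their part in the members' levels was not tested. The 65 genes called became 7, 37, 0 and 22 without day 0, 7, 14 or 21.

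Other genes of the pathway were taken from lists. Of the interferon genes themselves, 10 of 19 measured were under the background median on all 10 arrays. Of the 19, 17 were lower in expanded skin (53.2% of all named genes) with a median of -0.23, and 0 differed at an unadjusted p under 0.05. Ifng averaged 5.38 on the expanded and 5.78 on the non-expanded arrays, close to background. Receptors and their kinases were well above background, with 3 of 9 lower in expanded skin (53.2% of all named genes), a median of 0.10 and 0 at an unadjusted p under 0.05. Tyk2, the kinase of the interferon alpha receptor, differed by -0.37 ± 0.21, and the receptor gene Ifngr1 by 0.51 ± 0.35. Sensors and adaptors upstream of interferon were lower for 9 of 13 (53.2% of all named genes, median -0.18), 0 of them at an unadjusted p under 0.05. Ddx58, which encodes the RNA sensor RIG-I, and Tlr3 differed by -0.56 ± 0.28 and -0.71 ± 0.36. Among genes that restrain the pathway, 5 of 7 were lower (53.2% of all named genes), while Socs3, an inhibitor of cytokine signalling, was higher by 1.14 ± 0.25 (limma adjusted p = 0.331).

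A further list of interferon-stimulated genes outside the 38, also chosen with earlier results of these data known, showed the same side. Of 39 measured, 35 were lower in expanded skin (53.2% of all named genes) with a median of -0.76, and 14 were lower at an unadjusted p under 0.05 against 4.1% of all named genes. The 1 gene of the list that was higher at that level was Ifi27 (0.70 ± 0.21, 4.21% of all named genes), named after its value was seen. Ifi27l2a, a mitochondrial interferon-induced protein, averaged 6.63 ± 0.37 on the expanded and 8.65 ± 0.60 on the non-expanded arrays (SD, n = 4 each). Its difference was -2.02 ± 0.24 (limma adjusted p = 0.221). Trim30a, Trim21 and Phf11d differed by -1.23 ± 0.27, -1.04 ± 0.25 and -1.37 ± 0.33. MHC class I and immunoproteasome genes were lower for 8 of the 11 measured (53.2% of all named genes, median -0.27), led by H2-T23 at -0.61 ± 0.23.

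Macrophage and monocyte markers lay on the same side as the members. All 11 measured were lower in expanded skin (53.2% of all named genes), with a median of -0.67. At an unadjusted p under 0.05, 2 were lower (4.1% of all named genes), Ly6c2 at -1.09 ± 0.34 and Aif1 at -1.03 ± 0.39. Their mean level was 12.10, 12.09, 11.54 and 10.78 in day order on the expanded arrays, against 12.16, 12.81, 11.14 and 12.93 on the non-expanded arrays, and 8.20 in anagen and 10.08 in telogen skin. Non-expanded skin of day 14 was thus the lowest of its arm in macrophage markers as well, and 0 of the 11 were under background on all arrays. In expanded skin their lowest mean was that of day 21, where the members had theirs at day 14. At day 14 the macrophage mean was higher in expanded than in non-expanded skin, unlike that of the members. In expanded skin, skeletal muscle markers were lower in 13 of 14 cases (53.2% of all named genes, median -1.74). Keratinocyte markers were higher in 11 of 12 (46.8% of all named genes, median 0.73). The part of these cell types in the differences of the members was not tested.

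**Figure D5:**
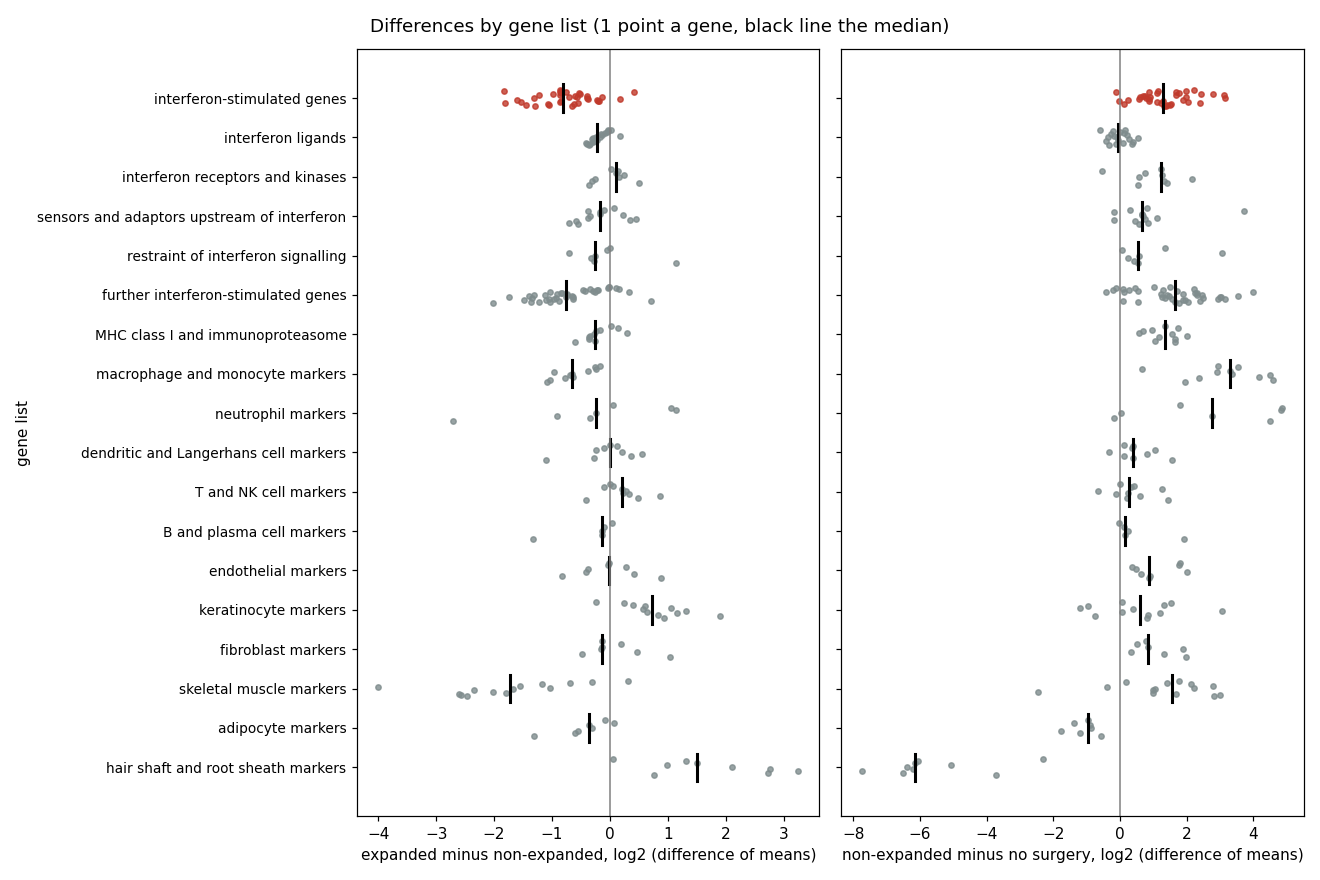
Log2 differences of single genes by list, expanded minus non-expanded skin (left) and non-expanded minus no surgery (right), with black lines at medians. On the left the members (red, median -0.81) and the further interferon-stimulated genes (median -0.76) lie lower, as do macrophage markers (median -0.67), while interferon receptors (median 0.10) lie near 0.

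Over the 10 arrays, the genes outside the list whose levels were most like the mean of the members tested were Ifi209 (Pearson r = 0.981), Cfp (0.969), Phf11b (0.965), Fmo9 (0.963), Gm5431 (0.962), Kcnab2 (0.953), AW112010 (0.951) and Sp100 (0.949). The 10 arrays share their groups, so these values are a description. Ifi209 averaged 9.16 in expanded, 10.78 in non-expanded and 7.81 in skin without surgery, and Cfp, which encodes the complement factor properdin made by myeloid cells, averaged 10.26, 11.90 and 8.96 in the same order. Within the list, Herc6 (r = 0.949), Zbp1 (0.945) and Irf9 (0.94) were most like the mean of the other members, and Cxcl10 was least like it (r = -0.03), followed by Oas3 (0.246) and Usp18 (0.329).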

How the data were processed

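Each of the 10 arrays gave 1 value for each of 28846 probe sets. The deposited values were read as log2 signals. Per the labels, total RNA of whole skin was labelled with biotin (Affymetrix WT PLUS), and background correction, summarisation, normalization and log base are not given in the sources used here. The base was taken from the range, 1.88 to 19.88, with array medians from 6.27 to 6.45. The submitters' processing notes name mm10. The number of arrays limits the precision.

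Symbols came from the platform annotation (19572 probe sets, 19505 genes), and positions and promoters from RefSeq (GRCm38.p6). Genes with a mean under the 30th percentile (4.86) were left out of the tests, leaving 13653. limma 3.58.1 (lmFit, eBayes) in R 4.3.3 gave two-sided p-values with Benjamini-Hochberg adjustment at 0.05. Expanded and non-expanded arrays were compared with the day as a block (3 residual degrees of freedom), since both arms were sampled on the same labelled days. Same-day deviations from the arm means correlated at -0.133, -0.171, -0.104 and 0.358, so the pairing rests on the labels. Groups against skin without surgery came from 1 fit of all 10 arrays (7 degrees of freedom), and slopes over 21 days from a line per arm (4 degrees of freedom). The fit of all 10 arrays had no term for hair stage or day. An exact permutation test of 4 pairs cannot go below 0.125. The code was tested on simulated data with 200 changed genes. Background means the median of 23 background probe sets, 5.46.

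The members and lists were chosen with earlier results of these data known. Given in full are the 12 members with the smallest p between the arms and 10 set by name, then the leading 6, or 4 for single arrays, of each other comparison, and up to 4 genes a list. Ifi27, Siglech and S100a8 were named outside this rule. Alternatives were the fit without the block, other filters, normalizations, probe set rules and prior spreads, each day left out, and telogen or anagen alone.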

Additional observations from a re-analysis of the deposited data

Results flagged for a closer look

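In non-expanded skin, 2 members had 1 array far from the other 3, that of day 14 in both cases. For Oasl2 the gap to the nearest array was 0.903 of the whole range (6.92 at day 14, against 9.12, 9.12 and 9.35), and for Ifit2 it was 0.835 (6.92 at day 14, against 8.39, 8.56 and 8.68). Both ratios pass Dixon's critical value for 4 arrays. Of 74 groups checked (36 members and their mean, in 2 arms), 2 passed it, and chance alone flags about 1 in 20.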

How the results depend on the processing

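Between the arms, the median of the members stayed below 0 in every alternative run (-0.64 to -0.86). When a day was left out, 31 to 35 of 36 were lower (52.6% to 53.2% of all named genes). With the day block dropped, 2 genes passed over all genes and 1 in the fit of all 10 arrays, none of them members. That fit left 12 members lower at an unadjusted p under 0.05 (2.32% of all named genes), against 19 with the pairing by day and 17 without it. Without a day, 0 to 1 genes passed and 14 to 18 members were lower at an unadjusted p under 0.05 (2.45% to 4.72% of all named genes), with member medians of -0.81 to -0.64. Leaving out a day moved 7 of 19 members given in full by over 1.5 times (Cxcl10, Gbp2, Irf9, Isg15, Psmb8, Stat2 and Zbp1), and turned the sign only of Gbp2, from -1.57 (without day 0) to 0.11 (without day 21). The 50th percentile filter left 22 members, since fewer genes were tested. Of these, 22 were lower in expanded than in non-expanded skin (44.8% of all genes past that filter). Over the implant 22 were higher than without surgery (52.3%), and 20 were higher in expanded skin than without surgery (54.4%). The slope difference, expanded slope and non-expanded slope were below 0 for 17, 16 and 12, against 49.4%, 49% and 49.9%. The count for the non-expanded slope thus lies near the share of all genes. Over the implant, 14 to 30 members were higher at an unadjusted p under 0.05 without a day (6.28% to 6.99% of all named genes), 2645 genes passed against anagen alone (0 in the pooled fit), and 7 members were higher at an unadjusted p under 0.05 against telogen alone (21 in the pooled fit). For expanded skin against no surgery, 1850 genes passed against anagen alone, 33 without a level filter and 0 to 37 without a day (65 in all), with 3 to 9 members higher at an unadjusted p under 0.05 without a day (6.36% to 7.84% of all named genes), and 1 higher and 2 lower against telogen alone (10.2% and 11.3%), where all arrays gave 6 and 0. Day slopes rested on single days. Leaving out a day moved the member median of the slope difference between -1.01 and 0.25, with 16 to 29 lower (48.8% to 50.1% of all named genes). The member median of the slopes in non-expanded skin moved between -1.33 and 0.40, with 9 to 33 lower (49.5% to 50.2%). It was 0.40, 0.08 and 0.18 without day 0, 7 or 14. The causes were not tested. Probes near background limit what can be seen in Isg15, Zbp1 and the OAS genes.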

Other observations

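Among markers of other leukocytes, 8 of 10 T and NK cell markers were higher in expanded skin (46.8% of all named genes, median 0.21). Their list means were 5.46 to 6.21 in expanded and 5.42 to 6.05 in non-expanded skin, near background. The list mixes levels, as 2 of the 10 were under background on all arrays. Cd3e stood well above it, with means of 7.589 in expanded and 7.115 in non-expanded skin. Dendritic and Langerhans cell markers were higher in 5 of 9 (46.8% of all named genes, median 0.00), while Cd209a differed by -1.10 ± 0.43. Siglech, a marker of the plasmacytoid dendritic cells known for making interferon, differed by 0.20 ± 0.24. It averaged 5.80 on the expanded and 5.59 on the non-expanded arrays, near background. Neutrophil markers were lower in 4 of 7 (53.2% of all named genes, median -0.25), with Retnlg at -2.71 ± 0.69 and S100a8 at 1.14 ± 2.05. The list mean spanned 6.30 to 9.91 over the expanded and 6.78 to 9.57 over the non-expanded arrays. Against skin without surgery, 11 of 11 macrophage markers were higher over the unfilled expander (50.6% of all named genes, median 3.31). So were 8 of 9 receptors and kinases of the interferon pathway (median 1.22), the same side as the members. B and plasma cell markers were under background on all arrays in 4 of 5 cases, and Jchain, of antibody-secreting cells, averaged 3.57 on the expanded and 4.91 on the non-expanded arrays. Jchain was under the level filter, and none of the other markers named here passed an adjusted p of 0.05 in limma between the arms, where no gene at all did. Without that filter Retnlg, Cd209a and Jchain were lower at an unadjusted p under 0.05 in limma (4.1% of all named genes). Siglech and S100a8 did not reach that level.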
